A study of Mus musculus with 50 samples.

Results

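The genes described here are the 39 Hox genes of the mouse, chosen by symbol alone: every protein-coding gene of the GENCODE vM21 annotation named Hoxa, Hoxb, Hoxc or Hoxd followed by a number, with no filter on expression. They are 39 of the 21897 protein-coding genes, and of the 55487 genes of any type, that were counted in each library. They lie in 4 clusters. On the GRCm38 build, the 11 members of cluster a lie on chromosome 6 between 52155590 and 52260880, the 10 of cluster b on chromosome 11 between 96194316 and 96368256, the 9 of cluster c on chromosome 15 between 102921103 and 103036852, and the 9 of cluster d on chromosome 2 between 74668310 and 74765142. By their place in a cluster they form 13 paralog groups, with 15 members in paralog groups 1 to 5 and 24 in paralog groups 6 to 13. Their counts were compared library by library to ask whether libraries of frontal cortex also held RNA of hindbrain or spinal tissue, P7 WT replicate 2 above all.

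RNA was sequenced from mouse frontal cortex in 50 libraries, at 5 ages and in 2 genotypes, with 5 replicates in each of the 10 groups. Wild-type mice (WT) were compared with Setd1a+/- mice (Het), which carry a heterozygous loss-of-function allele (tm1d) of the histone methyltransferase gene Setd1a in every cell. The ages were embryonic day 14 (E14), embryonic day 18 (E18) and postnatal days 7, 35 and 70 (P7, P35, P70). All mice were male; the labels give the strain as C57BL/6NTac and the methods describe a mixed background of C57BL/6NTac and C57BL/6J. The methods describe dissection of frontal brain regions from embryos and of frontal cortex after birth, from both hemispheres, with RNA taken from a part of the homogenate, captured by poly-A tail and sequenced in 1 batch. Total counts ranged from 35507165 (E14 WT replicate 1) to 43907318 (P35 Het replicate 1), and at P7 from 37467708 to 39639802. CPM denotes counts divided by the total counts of the library times 10 to the power 6, and RPKM is CPM per kilobase of exonic length.

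Hox genes encode homeodomain transcription factors that give positional identity along the body axis. Their order within each cluster follows the order of their front limits of expression, so that low-numbered paralogs mark the hindbrain and upper neck, and higher-numbered paralogs mark successively lower levels of the spinal cord and trunk. The forebrain, the midbrain and the foremost part of the hindbrain, from which the cerebellum forms, lack Hox expression in normal development, and neurons of the medulla and spinal cord keep it after birth.

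Setd1a, the targeted gene, was counted in every library. At E14 its level in replicates 1 to 5 was 124, 122, 133.4, 118 and 122 CPM in WT and 145, 139, 126, 142 and 132.6 CPM in Het. At E18 it was 96.9, 94.2, 97.9, 88.8 and 98.4 CPM in WT and 104, 111, 97.9, 103 and 112 CPM in Het. Het libraries were thus not lower than WT libraries, and the groups overlapped at both embryonic ages. At P7 the level was 70.1, 79.3, 66.5, 67.9 and 68.1 CPM in WT and 78.1, 75.6, 72.02, 79.8 and 80.8 CPM in Het. At P35 it was 82.4, 74.2, 74.9, 77.9 and 78.4 CPM in WT and 82.4, 80.3, 79.98, 81.9 and 83.3 CPM in Het, and at P70 75.1, 80.5, 74.3, 74.9 and 84.3 CPM in WT and 72.7, 78.9, 73.3, 69.2 and 88.5 CPM in Het. With age as a covariate, Setd1a was higher in Het by 0.10 on the log2 scale (SE 0.03, adjusted p = 0.00679, edgeR quasi-likelihood test). Counts over all exons of the gene do not resolve the targeted allele, so they do not check the genotype labels.

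P7 WT replicate 2 stood apart from the other 49 libraries. Among 13487 protein-coding genes other than Hox genes with at least 100 counts in it, 516 were at 2-fold or more, and 70 at 10-fold or more, over the highest of the other 9 P7 libraries. The same measure gave 334 genes at 2-fold and 0 at 10-fold for E14 Het replicate 2, 29 at 2-fold and 2 at 10-fold for E18 WT replicate 4, and at most 9 at 2-fold for each of the other 47 libraries. Results on Hox genes that rest on P7 WT replicate 2 are given with and without it.

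The label of frontal cortex was checked against 8 marker genes of the telencephalon, the part of the forebrain that forms the cortex, among them Emx1, Emx2, Tbr1, Neurod6, Lhx2 and Fezf2. None of the 8 was at 0 in any of the 50 libraries. Their summed level was 1852 to 2445 CPM at E14, 1220 to 2232 CPM at E18, 526 to 588 CPM at P35 and 505 to 646 CPM at P70. The lowest sum at E18 was that of WT replicate 4, 1 of the 2 E18 libraries with 30 or more Hox counts. It was at 0.675 of the median of the other 9, with 4 of the 8 genes below and 2 above every other E18 library. The other of the 2, WT replicate 3, was at 1812 CPM, 1.09 times the median of the other 9. The next lowest sum of E18 was in Het replicate 4, at 1510 CPM, which held 5 Hox counts. At P7 the sum was 835, 428, 918, 832 and 881 CPM in WT replicates 1 to 5 and 912, 860.2, 954, 838 and 872 CPM in Het replicates 1 to 5. The sum in P7 WT replicate 2 was 0.490 of the median of the other 9, with 7 of the 8 genes below every other P7 library and Lhx2 within their range. Among its 3 most abundant markers was Neurod6, at 68.5 CPM against a median of 166 in the other 9.

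All 39 Hox genes together gave 1569 counts in the 50 libraries, and 662 of them, 42.2%, came from P7 WT replicate 2. At P7 the WT libraries held 33, 662, 15, 15 and 7 Hox counts in replicates 1 to 5, and the Het libraries 11, 31, 5, 18 and 24. The sum in P7 WT replicate 2 was 16.9 CPM (95% interval 15.6 to 18.2, exact binomial), 42.9 times the median of the other 9 P7 libraries (0.393 CPM, 15 counts) and 20.3 times the highest of them. Those 9 libraries lay between 0.131 and 0.832 CPM, and the WT and Het libraries among them overlapped. All intervals cover counting error only. The mean of the P7 WT group was 3.74 ± 7.36 CPM (SD, n = 5), and 0.450 ± 0.273 CPM (n = 4) without replicate 2, against 0.464 ± 0.272 CPM (n = 5) in P7 Het. In bulk tissue, a smaller number of cells that express a gene and less RNA of it per cell cannot be told apart.

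At the other ages the Hox sums were low and uneven. At E14 the WT libraries held 5, 3, 7, 4 and 18 counts and the Het libraries 1, 77, 113, 67 and 22. At E18 the WT libraries held 22, 11, 44, 42 and 5 counts and the Het libraries 7, 7, 14, 5 and 5. Het replicates 2 to 5 at E14 were thus above every WT library, and Het replicate 1 was below all of them. At P35 the sums were 10, 11, 5, 13 and 8 in WT and 50, 6, 9, 12 and 22 in Het, and at P70 14, 18, 6, 30 and 4 in WT and 2, 23, 11, 7 and 8 in Het. WT and Het libraries overlapped at each of the 5 ages. Group means were 0.187 ± 0.145 CPM in E14 WT, 1.43 ± 1.15 in E14 Het, 0.638 ± 0.453 in E18 WT, 0.199 ± 0.107 in E18 Het, 0.245 ± 0.0788 in P35 WT, 0.482 ± 0.397 in P35 Het, 0.371 ± 0.271 in P70 WT and 0.267 ± 0.206 in P70 Het (SD, n = 5 each). Without replicate 5 the E14 WT mean was 0.124 CPM, and without replicate 1 the P35 Het mean was 0.318 CPM. The median of the other 49 libraries was 11 counts (0.279 CPM), 21 of them had under 10 counts, and 9 had 30 or more. The highest of the 49, E14 Het replicate 3, was at 2.89 CPM (95% interval 2.38 to 3.48), and P7 WT replicate 2 was 5.84 times above it.

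**Figure D1:**
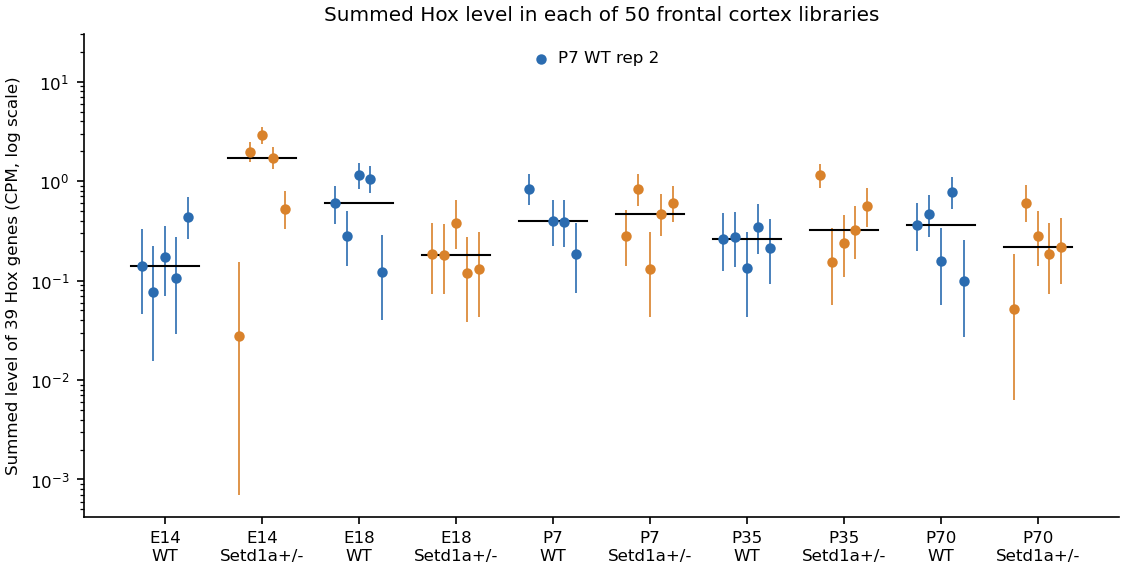
Summed CPM of the 39 Hox genes in each of the 50 libraries, by group. P7 WT replicate 2 lies at 16.9 CPM, and the highest of the other 49 libraries, E14 Het replicate 3, at 2.89 CPM.

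Within P7 WT replicate 2 the counts came from the front of the clusters. Paralog groups 1 to 5 held 654 of the 662 counts, or 98.8% (95% interval 97.6 to 99.5), and 14 of their 15 members had a count, Hoxb1 being at 0. Of the 24 members of paralog groups 6 to 13, 4 had a count (Hoxb6 3, Hoxd8 2, Hoxc13 2 and Hoxa7 1). All 4 clusters contributed, with 137 counts from cluster a (20.7%), 287 from cluster b (43.4%), 90 from cluster c (13.6%) and 148 from cluster d (22.4%). In all, 11 members reached 10 counts (Hoxa2, Hoxa3, Hoxa4, Hoxa5, Hoxb2, Hoxb3, Hoxb4, Hoxb5, Hoxc4, Hoxd3 and Hoxd4), 7 had 1 to 9, and 21 were at 0. In the other 49 libraries at most 3 members reached 10 counts in any library, and 8 of the 49 had a member that did. Of the 39 members, 15 were higher in P7 WT replicate 2 than in every other P7 library and 12 were higher there than in all of the other 49 libraries.

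Summed over members, the level per length in P7 WT replicate 2 was 0.18 RPKM for paralog group 1, 0.667 for group 2, 2.001 for group 3, 1.69 for group 4, 0.778 for group 5 and 0.039 for group 6. Groups 7, 8 and 13 were at 0.00887, 0.0186 and 0.0207 RPKM, and groups 9 to 12 at 0. The sum was thus highest in paralog groups 3 and 4 and dropped from group 5 to group 6. The groups differ in number of members, and all 3 members of group 3 share exonic bases with other genes (Hoxa3 27.1%, Hoxb3 52.9% and Hoxd3 62.8%), so that their counts may include fragments of those genes. The 12 members with the highest level were Hoxb3 (1.06 RPKM), Hoxc4 (0.825), Hoxd3 (0.730), Hoxa5 (0.435), Hoxa4 (0.416), Hoxa2 (0.345), Hoxb2 (0.322), Hoxb5 (0.302), Hoxb4 (0.298), Hoxa3 (0.208), Hoxd4 (0.147) and Hoxd1 (0.123).

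**Figure D2:**
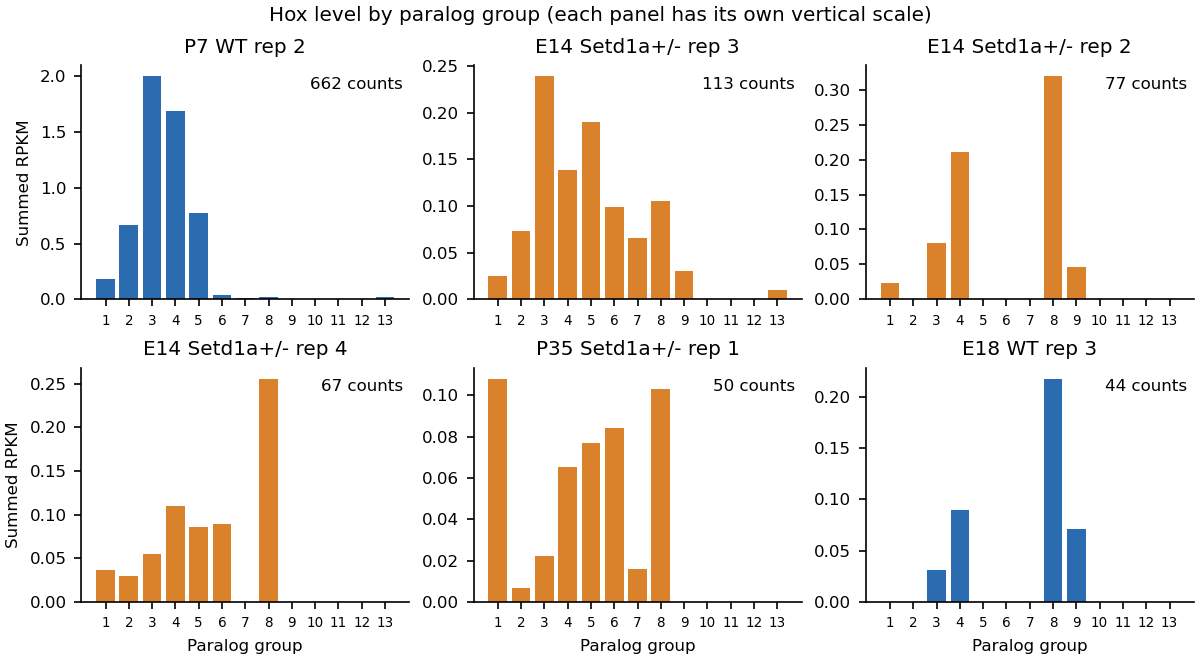
Summed RPKM of each Hox paralog group in selected libraries. In P7 WT replicate 2 the level peaks in group 3 at 2.001 RPKM and group 4 at 1.69 RPKM, and is at 0 in groups 9 to 12.

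The genes of paralog group 1 mark the early hindbrain, where Hoxb1 acts during segmentation. Hoxd1 had 9 counts in P7 WT replicate 2, against 0 in each of the other 4 WT libraries of P7 and 0, 1, 2, 0 and 0 in the Het libraries. Hoxb1 was at 0 in all 50 libraries.

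In paralog group 2, Hoxa2 has the front limit of expression nearest to the midbrain of any Hox gene. It had 24 counts in P7 WT replicate 2, 0 in the other 4 WT libraries, and 0, 0, 0, 0 and 2 in the Het libraries. Its level was 106 times the pooled level of the other 9 P7 libraries (95% counting interval 26.3 to 926). Hoxb2 had 44 counts in P7 WT replicate 2, 0, 0, 3 and 0 in the other WT libraries, and 0 in all 5 Het libraries, a ratio of 129.6 (41.6 to 653). For both genes the other P7 libraries of WT and Het overlapped at or near 0.

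Paralog group 3 is expressed in the hindbrain from its middle segments backward. Hoxb3 (ENSMUSG00000048763, chromosome 11, 96323326 to 96347930, plus strand) was the most abundant Hox gene of the library. It had 177 counts in P7 WT replicate 2, 1, 0, 2 and 0 in the other WT libraries, and 0, 0, 0, 0 and 4 in the Het libraries, a ratio of 223 (106 to 564). Hoxd3 had 120 counts in P7 WT replicate 2, 2, 1, 2 and 0 in the other WT libraries, and 2, 0, 0, 1 and 6 in the Het libraries, a ratio of 75.8 (43.4 to 143). Hoxa3 had 49 counts in P7 WT replicate 2, 0, 0, 1 and 0 in the other WT libraries, and 0, 0, 0, 0 and 2 in the Het libraries, a ratio of 144 (46.6 to 724). The next highest P7 library for each of these 3 genes was Het replicate 5, which held 4, 6 and 2 counts.

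Paralog group 4 has its front limit in the lower hindbrain. Hoxc4 (ENSMUSG00000075394, chromosome 15, 103018934 to 103036852, plus strand) had 83 counts in P7 WT replicate 2, 2, 0, 0 and 0 in the other WT libraries and 0 in all 5 Het libraries, a ratio of 367 (98.4 to 3079). Hoxb4 had 30 counts in P7 WT replicate 2, 4, 2, 1 and 0 in the other WT libraries, and 0, 2, 0, 0 and 0 in the Het libraries, a ratio of 29.5 (13.6 to 70.5). Hoxa4 had 26 counts in P7 WT replicate 2, 0 in the other 4 WT libraries and 0, 0, 0, 0 and 2 in the Het libraries, a ratio of 115 (28.8 to 999). Hoxd4 differed least, with 17 counts in P7 WT replicate 2, 2, 5, 1 and 1 in the other WT libraries, and 4, 3, 1, 4 and 2 in the Het libraries, a ratio of 6.53 (3.28 to 12.8). It was the only one of the 4 with a count in every P7 library.

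Paralog group 5 marks the junction of the hindbrain and the cervical spinal cord. Hoxb5 had 33 counts in P7 WT replicate 2, 7, 0, 1 and 0 in the other WT libraries and 0 in all 5 Het libraries, a ratio of 36.5 (16.5 to 91.4). Hoxa5 had 32 counts in P7 WT replicate 2, 5, 0, 0 and 0 in the other WT libraries, and 0, 0, 0, 0 and 1 in the Het libraries, a ratio of 47.1 (19.4 to 138). P7 WT replicate 1 was the next highest P7 library for both. Hoxc5 had 5 counts in P7 WT replicate 2 and 0 in the other 9 P7 libraries.

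Behind these groups, Hoxb6 had 3 counts in P7 WT replicate 2 and 0 in the other 9 P7 libraries. Hoxd8 went the other way, with 2 counts in P7 WT replicate 2 against 49 in the other 9, a ratio of 0.361 whose interval of 0.0425 to 1.37 includes equal levels. Hoxa7, with 1 count against 3 in the other 9, and Hoxc13, with 2 against 7, could not be told from equal levels (intervals 0.0561 to 36.7 and 0.256 to 13.3). Hoxd9, with 12 counts over 5 of the other 9 libraries, was at 0 in P7 WT replicate 2. A count of 0 there allows up to 3 counts.

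**Figure D3:**
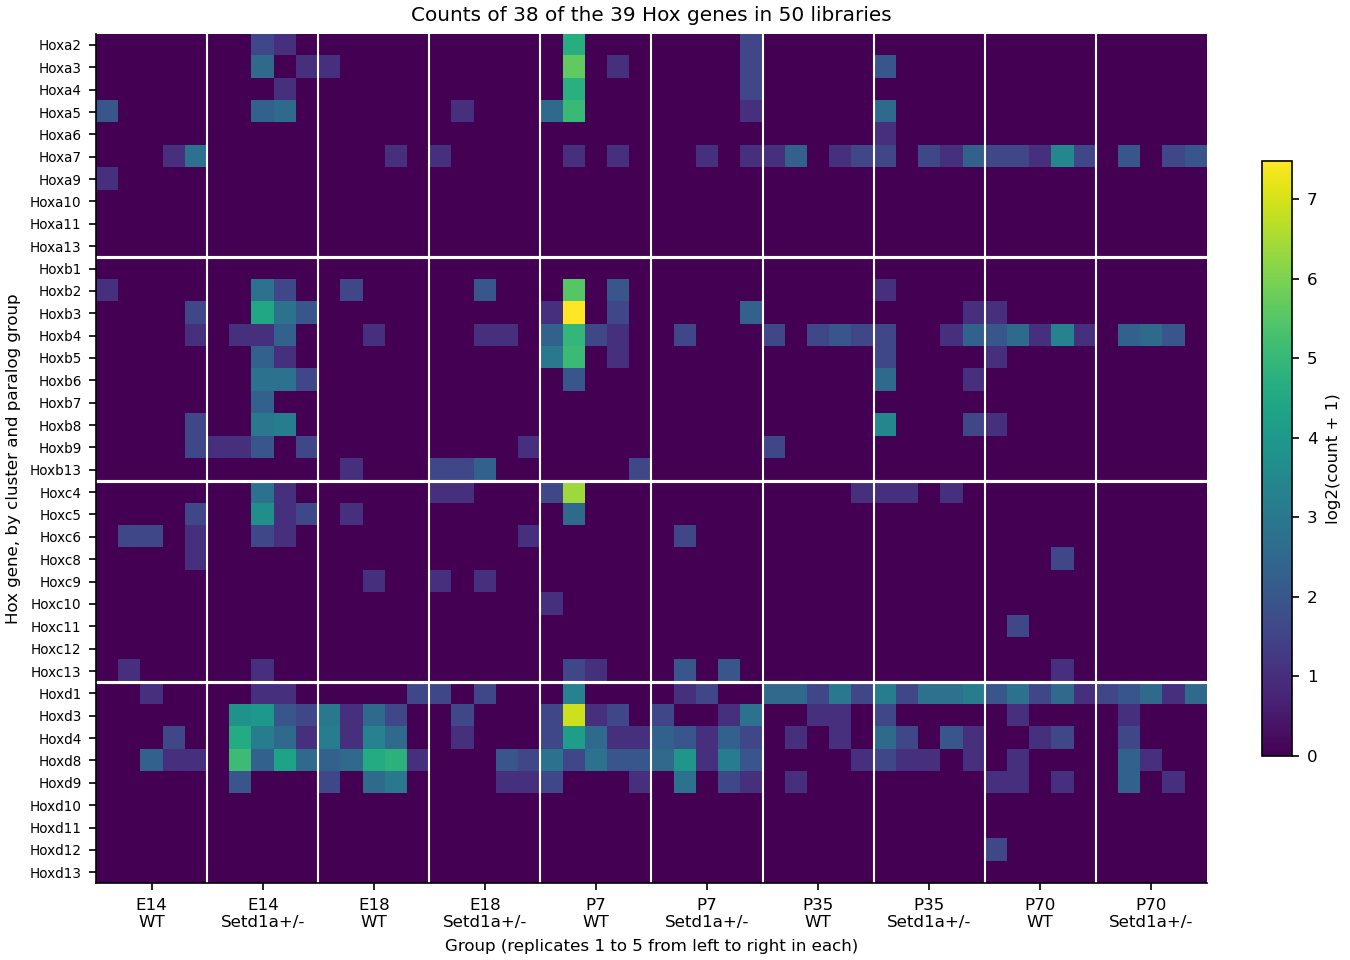
Counts of 38 of the 39 Hox genes in the 50 libraries on a log2(count + 1) scale, with genes ordered by cluster and paralog group. P7 WT replicate 2 is filled in paralog groups 1 to 5 across all 4 clusters, while most other libraries hold few counts outside Hoxd1, Hoxd4, Hoxd8, Hoxb4 and Hoxa7.

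Counting did not separate strands and gave a fragment to every gene it overlapped, so Hox genes that share exonic bases with a neighbour or an antisense gene are uncertain. Of the 39 members, 16 share exonic bases with another gene and 29 share under 10% of them. Hoxd3 shared 62.8% of its exonic bases (with Hoxd3os1, Hoxd4, Gm28230 and Haglr), Hoxb3 52.9% (with Hoxb3os) and Hoxd4 52.3%. Restricted to the 29 members that share under 10%, the sum in P7 WT replicate 2 was 5.20 CPM, 32.9 times the median of the other 9. Of these 29, Hoxc4, Hoxb4 and Hoxa5 share no exonic base and Hoxb5 shares 3.59% with Hoxb5os.

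Non-coding genes of the clusters were counted separately. Of 43 that lie within the clusters, 8 have symbols that start with Hox or Hot, and 2 of the 8 (Hotair and Hoxa11os) were at 0 in all 50 libraries. Hoxb3os, antisense to Hoxb3, had 50 counts over the other 49 libraries, 9 of them in the other 9 P7 libraries, and was at 4.16 CPM in P7 WT replicate 2, where Hoxb3, with which it shares exonic bases, was at 4.52 CPM. In P7 WT replicate 2 and the other 9, Hotairm1 had 35 and 6, Hoxaas2 22 and 1, Hoxb5os 10 and 0, Hoxaas3 3 and 0, and Hoxd3os1 0 and 3. Haglr of cluster d, named after the values were seen, had 39 and 1.

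The 250 bases before the start site are shown for 3 members of paralog groups 1 to 5, with and without counts in P7 WT replicate 2, from the RefSeq promoter table on GRCm38.p6, in which 22 of the 39 members have an entry. Shown are Hoxa5 and Hoxa2, which had counts there, and Hoxb1, which had none in any library. Hox proteins bind DNA jointly with Pbx proteins at sites of the form TGATNNAT, and capitals mark matches to these 8 letters on either strand. Hoxa5 (chr6:52204588-52204837, minus strand) lies within the genes Hoxa3, Hoxaas3 and Gm28308 but in no exon, and has 0 matches. Hoxa2 (chr6:52164832-52165081, minus strand) lies within Gm28308 but in no exon, and has 1 match. Hoxb1 (chr11:96365508-96365757, plus strand) ends with 6 bases of the annotated first exon, and has 1 match.
Hoxa5: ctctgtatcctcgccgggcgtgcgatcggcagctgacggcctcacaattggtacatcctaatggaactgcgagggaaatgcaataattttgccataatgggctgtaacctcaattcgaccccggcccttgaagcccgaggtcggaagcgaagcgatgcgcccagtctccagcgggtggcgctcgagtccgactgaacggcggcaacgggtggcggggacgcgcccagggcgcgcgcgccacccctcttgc
Hoxa2: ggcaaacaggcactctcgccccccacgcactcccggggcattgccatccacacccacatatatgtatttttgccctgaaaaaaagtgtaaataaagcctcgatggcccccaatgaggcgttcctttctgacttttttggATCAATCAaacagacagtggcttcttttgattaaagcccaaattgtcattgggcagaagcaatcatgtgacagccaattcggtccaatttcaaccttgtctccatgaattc
Hoxb1: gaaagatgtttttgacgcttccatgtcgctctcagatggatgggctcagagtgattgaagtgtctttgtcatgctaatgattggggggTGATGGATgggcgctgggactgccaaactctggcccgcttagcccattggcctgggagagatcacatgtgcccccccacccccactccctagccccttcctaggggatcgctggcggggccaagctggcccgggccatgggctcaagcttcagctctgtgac

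Of the 22 members with a promoter entry, 4 held the motif in these 250 bases, and of all 32851 promoters in the table outside chromosome 18, 2524 (7.68%) did. A match is a description of the letters and was not tested as a binding site.

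Marker genes of tissues that normally express or lack Hox genes were set beside these counts. In P7 WT replicate 2, all 12 transcription factor genes of brainstem and spinal neurons were above every other P7 library, and none of the 12 had 10 counts or more in every one of those 9. Their summed level in replicates 1 to 5 was 1.36, 68.4, 1.18, 1.19 and 0.9502 CPM in WT and 1.42, 1.15, 1.08, 1.28 and 1.49 CPM in Het, so that P7 WT replicate 2 was at 57.5 times the median of the other 9. The most abundant was Pax2 at 18.2 CPM (715 counts, at most 9 in another P7 library), followed by En1 at 12.3 CPM and Tlx3 at 10.2 CPM. None of the 12 was at 0 in P7 WT replicate 2. The cerebellar and midbrain sums were also raised in this library, at 44.4 and 13.7 times the median of the other 9. Which of these regions gave the counts of the 12 genes was not tested. The part of brainstem and spinal tissue in the Hox counts was not tested either.

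Transmitter genes of hindbrain neurons were compared in the same way. Of the glycinergic pair, Slc6a5, the neuronal glycine transporter, was at 28.4 CPM and Glra1, a glycine receptor subunit, at 3.21 CPM, a sum of 31.7 CPM or 119 times the median of the other 9, which lay between 0.0757 and 0.449 CPM. The noradrenergic pair summed to 20.1 CPM, 26.9 times the median (others 0.480 to 0.858 CPM), with the noradrenaline transporter gene Slc6a2 at 14.8 CPM and Dbh, which makes noradrenaline, at 5.31 CPM. The serotonergic genes Slc6a4, Tph2 and Fev summed to 3.98 CPM, 1.03 times the median and within the range of the others (3.23 to 4.77 CPM). Slc6a4 was at 2.17 CPM, Tph2 at 1.66 CPM and Fev at 0.153 CPM there. Tph2 and Fev, 2 of these 3 genes, were above every other P7 library (highest 1.32 and 0.0525 CPM), while Slc6a4 was below their median of 2.98 CPM. Their part in the Hox counts was not tested.

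Marker genes of regions that lack Hox expression were compared in P7 WT replicate 2 in the same way. All 6 cerebellar genes were above every other P7 library, with sums of 5.70, 228, 5.53, 5.88 and 5.33 CPM in WT and 3.69, 5.12, 4.04, 5.03 and 4.82 CPM in Het, led by Barhl1 at 88.2 CPM, En2 at 56.8 CPM and Pcp2 at 52.9 CPM. Midbrain genes summed to 25.7 CPM, 13.7 times the median of the other 9 (0.918 to 2.30 CPM), with 5 of 7 above all others, Otx2 at 17.2 CPM, Pax7 at 4.03 CPM, Sox14 at 3.16 CPM and Foxa2 at 0. Pitx3 and Foxa1, which are among the 5, had only 7 and 3 counts. Slc6a3, at 0.969 CPM, was within the range of the other 9 and below their median of 1.49 CPM. Thalamic genes summed to 93.1 CPM, 2.31 times the median (34.8 to 46.3 CPM), with 3 of 5 above all others (Tcf7l2 at 52.4 CPM, Lef1 at 9.26 CPM and Gbx2 at 2.50 CPM) Prkcd, at 23.96 CPM, within their range and Rgs16, at 5.05 CPM, below all of them (lowest 5.33 CPM). Hypothalamic genes summed to 11.6 CPM, 1.58 times the median (5.83 to 9.70 CPM), with 3 of 9 above all others (Agrp at 5.66 CPM, Otp at 2.65 CPM and Pmch at 0.944 CPM), Pomc, at 1.51 CPM, within their range and Sim1 at 0. Pitx3, Foxa1, Slc6a3, Gbx2, Rgs16 and Pmch are named after their values were seen. The part of these regions in the RNA that held the Hox counts was not tested.

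Choroid plexus and myelin genes moved with the Hox genes as well. All 4 choroid plexus genes were above every other P7 library, with sums of 2.27, 637, 1.68, 1.84 and 1.90 CPM in WT and 2.24, 2.35, 1.81, 1.88 and 2.55 CPM in Het. Ttr, which encodes transthyretin, gave 622 CPM of that sum, with Clic6 at 9.11 CPM and Folr1 at 3.67 CPM. All 6 myelin genes were above every other P7 library, with a sum of 1544 CPM against 192.3 to 251 CPM, with Mbp, the highest, at 744 CPM and Cnp at 215 CPM. Their part in the Hox counts was not tested.

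Markers of other tissues moved in both directions in P7 WT replicate 2. Striatal genes summed to 86.9 CPM, 0.603 of the median and below the other 9 (107 to 378 CPM), with 4 of 6 genes below every other P7 library, Rgs9 at 24.8 CPM and Ppp1r1b at 21.9 CPM. Genes of the meninges and fibroblasts summed to 278 CPM, above the others (184 to 277 CPM), with 2 of 5 genes above every other P7 library, Col1a2 at 123 CPM, Col1a1 at 96.2 CPM and Dcn at 35.2 CPM (highest elsewhere 22.7 CPM). Skeletal muscle genes summed to 12.8 CPM (others 12.4 to 14.8 CPM), with 4 of 7 genes above and 2 below every other P7 library, Acta1 at 4.13 CPM, Myh3 at 2.78 CPM and Myh8 at 2.63 CPM. The 4 above, of which the last 3 are named after their values were seen, were Myh8, Mylpf, Tnnt3 and Myod1, and Myod1 had 57 counts against at most 3 in another P7 library. Epidermal genes summed to 24.1 CPM, above the others (19.9 to 23.003 CPM), with 1 of 4 genes above every other P7 library, Krt1 at 14.6 CPM, Krt10 at 9.44 CPM and Krt5 at 0.0765 CPM. Erythroid genes summed to 135 CPM (others 101 to 271 CPM), led by Hbb-bs at 61.1 CPM, Hba-a1 at 47.4 CPM and Hbb-bt at 12.02 CPM, and leukocyte genes to 2.40 CPM (others 2.04 to 2.91 CPM), led by Ptprc at 1.89 CPM, Mpo at 0.255 CPM and Cd79a at 0.230 CPM with Elane at 0. The part of these tissues in the Hox counts was not tested.

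Tests by genotype at P7 were read for the marker lists set beside the Hox genes, with P7 WT replicate 2 and without it. Without it, 4 WT libraries of P7 remained. With it, edgeR called as lower in Het 1 of 5 tested brainstem and spinal genes (Pax2), 1 of 1 glycinergic gene (Glra1), 4 of 5 cerebellar genes (Pcp2, Cbln3, Barhl1 and En2), 1 of 2 midbrain genes (Otx2), 1 of 5 thalamic genes (Tcf7l2), 1 of 4 choroid plexus genes (Ttr) and 3 of 6 myelin genes (Mbp, Mag and Mobp), in a fit that called 120 of all 16330 genes (0.735%). None was called as higher, and no gene of the other marker lists was called. Without P7 WT replicate 2, edgeR called 0 genes of every list, and 7 genes of all 16396 tested (0.0427%). Of the Hox genes only Hoxd8 was tested in these 2 fits, and it was called in neither.

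**Figure D4:**
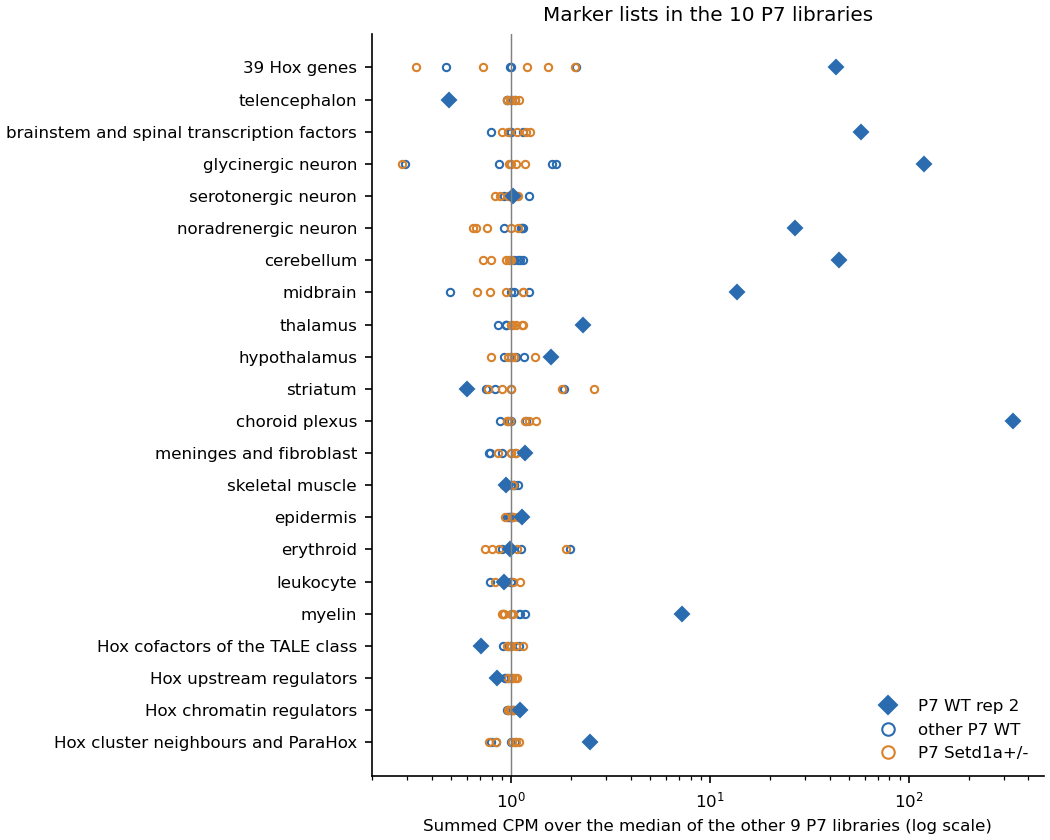
Summed CPM of each marker list in the 10 P7 libraries, as a ratio to the median of the 9 libraries other than WT replicate 2, on a log scale. P7 WT replicate 2 stands at 335 for choroid plexus, 119 for glycinergic neurons, 57.5 for brainstem and spinal transcription factors and 0.490 for the telencephalon.

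Across the whole table, the 20 protein-coding genes other than Hox genes with the largest ratio of P7 WT replicate 2 to the highest other P7 library, among those with at least 100 counts in it, were found. Ttr came first at 1232-fold. Those with more than 3 counts in the highest other library followed, in order of ratio, with En2 at 281-fold, Mab21l2 at 149.7-fold, Slc6a2 at 143-fold, Barhl1 at 139.7-fold, Shox2 at 133.1-fold, Slc6a5 at 121-fold, Uncx at 103-fold and Cnpy1 at 82.6-fold. Skor1 was at 81.1-fold, Pax2 at 78.6-fold, Mybpc3 at 69.9-fold, Nhlh1 at 66.6-fold, Lhx1 at 66.5-fold and Tlx3 at 64.6-fold. Skor2, with 264 counts against 0 in the other 9, was at least 84.1-fold higher against a floor of 3 counts per library. Gabra6 (382 counts, at most 3 elsewhere), Pax3 (325, at most 2), Atoh1 (218, at most 3) and Pou4f2 (212, at most 1) made up the 20.

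The other libraries with 30 or more Hox counts varied in which Hox genes they held. E14 Het replicate 3 held 113 counts, 76.1% of them in paralog groups 1 to 5 (95% interval 67.2 to 83.6), with 20 members at 1 count or more and Hoxb3 (21), Hoxd3 (15) and Hoxc5 (12) at 10 or more. E14 Het replicate 2 held 77 counts, 73 of them from cluster d, with Hoxd8 at 34, Hoxd4 at 23 and Hoxd3 at 13. Of its counts, 50.6% fell in paralog groups 1 to 5. E14 Het replicate 4 held 67 counts over 17 members, of which Hoxd8 had 19, with 49.3% in paralog groups 1 to 5. Rank correlation of the 39 members with P7 WT replicate 2 was 0.713 for E14 Het replicate 3, 0.692 for E14 Het replicate 4, 0.573 for P35 Het replicate 1, 0.527 for P7 WT replicate 1, 0.210 for E14 Het replicate 2, 0.173 for E18 WT replicate 3, 0.165 for E18 WT replicate 4, 0.123 for P70 WT replicate 4 and 0.106 for P7 Het replicate 2, given as a description over sparse counts with many shared zeros.

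At E18, WT replicates 3 and 4 held 44 and 42 Hox counts, 42 and 41 of them from cluster d. Hoxd8 had 23 and 27 of these, and 34.1% and 16.7% of the counts fell in paralog groups 1 to 5. P35 Het replicate 1 held 50 counts over 15 members, with Hoxb8 at 10 and Hoxd1 at 8 as the highest, and 60% (95% interval 45.2 to 73.6) in paralog groups 1 to 5. P7 WT replicate 1 held 33, with Hoxb5 at 7 as the highest and 72.7% (95% interval 54.5 to 86.7) in paralog groups 1 to 5. P7 Het replicate 2 held 31, with Hoxd8 at 14 and 19.4% in paralog groups 1 to 5. P70 WT replicate 4 held 30, with Hoxa7 at 10, Hoxb4 at 9 and 53.3% in paralog groups 1 to 5. In cluster d, Hoxd8 and Hoxd4 thus carried most counts of E14 Het replicate 2 and of E18 WT replicates 3 and 4, while P7 WT replicate 2 had 2 counts of Hoxd8.

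Markers of tissues around the brain varied among the embryonic libraries beside these Hox counts. Choroid plexus genes summed to 0.366, 19.3, 375, 251.5 and 417 CPM in E14 WT and 57.8, 1.42, 179.6, 451 and 471 CPM in E14 Het, and to 4.42, 4.49, 239, 199 and 8.597 CPM in E18 WT and 4.83, 1.42, 3.31, 3.77 and 3.25 CPM in E18 Het. The same 2 libraries, E18 WT replicates 3 and 4, thus held the highest Hoxd8 counts and the highest choroid plexus sums of their age, the latter at 54.04 and 45.04 times the median of the other 9, with Ttr the most abundant gene in both (231 and 185 CPM) and none of the 4 genes at 0. Erythroid genes also had their highest sums of E18 in WT replicates 3 and 4, at 379 and 462 CPM. At E14, the libraries with the highest Hoxd8 counts were Het replicate 2, with a choroid plexus sum of 1.42 CPM, and Het replicate 4, with 451 CPM.

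Genes of the meninges and fibroblasts summed to 6.11, 17.8, 118, 80.06 and 225 CPM in E14 WT and 15.5, 939, 152, 311 and 201 CPM in E14 Het. E14 Het replicate 2, with the most Hoxd8 and Hoxd4 counts of any library, had the highest of these sums, all 5 genes being above every other E14 library and Col1a2 the most abundant at 425 CPM. At E18 the same genes summed to 578, 207, 479, 448 and 47.3 CPM in WT and 316, 316, 364, 193.2 and 202.1 CPM in Het. Brainstem and spinal transcription factors summed to 0.929, 0.863, 1.35, 0.694 and 1.56 CPM in E14 WT and 1.25, 2.11, 1.74, 2.21 and 2.33 CPM in E14 Het. The 4 E14 libraries with the most Hox counts, Het replicates 2 to 5, were thus also the 4 with the highest of these sums, with 1, 3, 1 and 2 of the 12 genes above every other E14 library and 4, 3, 4 and 3 of the 12 at 0. The most abundant of the 12 was Lmx1b in Het replicates 2, 3 and 5 (0.567, 0.665 and 0.523 CPM) and Gata3 in Het replicate 4 (0.565 CPM). This order was not found at E18, where the same 12 genes summed to 1.46, 0.985, 1.25, 1.45 and 0.712 CPM in WT and 1.12, 1.14, 1.72, 2.51 and 0.919 CPM in Het. The highest of these sums was in E18 Het replicate 4, which held 5 Hox counts, with 4 of the 12 genes above every other E18 library, 4 at 0 and Lmx1b the most abundant at 0.949 CPM.

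E14 Het replicate 3, with the most Hox counts of its age, also had the highest sums of skeletal muscle and epidermal genes at E14. Skeletal muscle genes summed to 4.31, 3.02, 3.03, 2.59 and 3.45 CPM in E14 WT and 3.02, 2.78, 9.11, 6.42 and 2.83 CPM in E14 Het. In E14 Het replicate 3, 5 of the 7 genes were above every other E14 library, none was at 0 and Acta1 was the most abundant at 3.04 CPM, and E14 Het replicate 4, with 67 Hox counts, had the second highest sum. Epidermal genes summed to 25.7 CPM in E14 Het replicate 3 (others 12.9 to 21.2 CPM), with 3 of the 4 genes above every other E14 library, none at 0 and Krt10 the most abundant at 11.3 CPM. E14 Het replicate 2, with 77 Hox counts, had the lowest epidermal sum and a skeletal muscle sum within the range of E14 WT. Erythroid genes summed to 355, 301, 319, 486 and 1057 CPM in E14 WT and 245, 795, 938, 915 and 918 CPM in E14 Het. Het replicates 2 to 5 and WT replicate 5, the E14 WT library with the most Hox counts, were above the rest. At P35 the highest erythroid sum was in Het replicate 1 (525 CPM), which held 50 Hox counts. At P70 it was in WT replicate 4 (181 CPM, next highest 172 CPM), which held 30 Hox counts. At P7 it was in WT replicate 5 (271 CPM), which held only 7 Hox counts. The part of all these markers in the Hox counts was not tested.

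Over the 49 libraries other than P7 WT replicate 2, the 5 Hox genes with the highest mean level were Hoxd8 (0.0370 RPKM), Hoxd1 (0.0271), Hoxd4 (0.0186), Hoxb4 (0.0135) and Hoxd9 (0.00989). Hoxd4 had 104 counts in 28 of these libraries, with at most 23 in E14 Het replicate 2, and Hoxd9 had 40 counts in 17 libraries, with at most 7 in E18 WT replicate 4. In cluster d, the members behind Hoxd9 (Hoxd10, Hoxd11 and Hoxd13) were at 0 throughout, except for 2 counts of Hoxd12 in P70 WT replicate 1.

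Only 1 of the 39 members, Hoxd8, passed the filter on low counts that left 16330 genes to be tested, so 38 were not tested there. Hoxd8 (ENSMUSG00000027102, chromosome 2, 74704615 to 74707933, plus strand) shares no exonic base with another gene. It had 0, 0, 4, 1 and 1 counts in E14 WT and 0, 34, 4, 19 and 5 in E14 Het, and 4, 5, 23, 27 and 1 in E18 WT and 0, 0, 0, 3 and 2 in E18 Het. At P7 it had 6, 2, 6, 3 and 3 counts in WT and 5, 14, 1, 8 and 3 in Het. At P35 and P70 no library had more than 4, with 6 counts over the 10 libraries of each age. Every P7 library thus had a Hoxd8 count, while most adult libraries had none, and WT and Het overlapped at each age. Hoxd8 reached 10 counts only in E14 Het replicates 2 and 4, E18 WT replicates 3 and 4 and P7 Het replicate 2. It thus passed the filter through the libraries where it was high, and the tests of Hoxd8 below draw on those same libraries.

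Hoxd8 fell from P7 to P35 by 2.80 on the log2 scale (SE 0.96, adjusted p = 0.00815, edgeR quasi-likelihood test with Benjamini-Hochberg adjustment), and age as a whole passed the test (adjusted p = 0.000822). Of all genes tested, 76.2% were called from P7 to P35 (38.3% of all genes tested as lower and 37.9% as higher), and 97.4% were called for age, so that a call for age is the rule in this table. Without P7 WT replicate 2 the adjusted p was 0.00756 from P7 to P35 (76.4% of genes called) and 0.000904 for age (97.5% called). Hoxd8 was not called from E14 to E18 (log2 change 0.07, adjusted p = 0.927; 73.2% of genes called, 73.8% without P7 WT replicate 2), from E18 to P7 (-0.34, adjusted p = 0.644; 76% called, 76.2% without it) or from P35 to P70 (0.02, adjusted p = 0.994; 10.2% called, 12.2% without it).

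By genotype, edgeR called 0 of the 1 member tested in each comparison, as did limma and DESeq2 wherever they gave an adjusted p. The unadjusted p of Hoxd8 was under 0.05 at E14, at E18 and for the interaction in each of the 3 tools, and in none of the other genotype comparisons. At E14 Hoxd8 was higher in Het by 3.19 on the log2 scale (SE 0.88, adjusted p = 0.113; 0.129% of genes called), and at E18 it was lower in Het, by -3.36 (SE 0.90, adjusted p = 0.106; 0.11% called). Of the 62 Hoxd8 counts of E14 Het, 34 came from replicate 2, the library with the highest meningeal sum of its age. Of the 60 of E18 WT, 23 and 27 came from replicates 3 and 4. These 2 had the highest choroid plexus and erythroid sums of their age. The lists differed between the ages. E14 Het replicate 2 had a choroid plexus sum of only 1.42 CPM. The highest meningeal sum of E18, 578 CPM, was in WT replicate 1, which had 4 Hoxd8 counts. The part of these tissues in the Hoxd8 counts was not tested. The joint test of the 4 age by genotype terms gave an adjusted p of 0.309 for Hoxd8 (unadjusted p = 0.000132), with 0% of genes called, and 0.0061% without P7 WT replicate 2. With age as a covariate, the change by genotype was 0.39 (SE 0.51, adjusted p = 0.830; 4.43% of genes called, 4.49% without P7 WT replicate 2). At P7 it was 0.65 (SE 0.78, adjusted p = 0.899; 0.735% called, 0.0427% without P7 WT replicate 2), at P35 1.78 (SE 1.67, adjusted p = 1; 0% called) and at P70 1.83 (SE 1.67, adjusted p = 0.9998; 0.233% called).

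The E14 result depended on single libraries. Hoxd8 was called at E14 without WT replicate 5 (adjusted p = 0.04996, 4.55% of genes called), without Het replicate 1 (0.0206, 2.61% called), without Het replicate 3 (0.0324, 2.38% called) and without Het replicate 5 (0.0483, 0.908% called). Over the 10 libraries of E14 left out in turn, the adjusted p of Hoxd8 ran from 0.0206 to 0.821, the latter without Het replicate 2 (0.0549% of genes called). At E18 it ran from 0.0534 without WT replicate 5 (0.189% called) to 0.384 without WT replicate 4 (0.0488% called), and was 0.278 without WT replicate 3 (0.0731% called), so no library left out there brought a call.

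**Figure D5:**
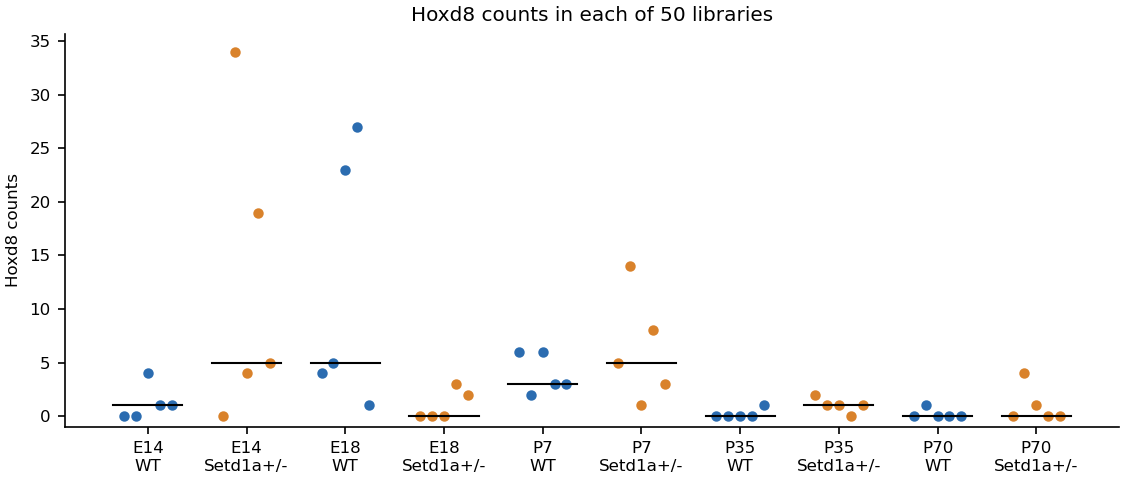
Hoxd8 counts in each of the 50 libraries, by age and genotype. Counts reach 34 in E14 Het and 27 in E18 WT, lie between 1 and 14 at P7, and do not exceed 4 at P35 and P70.

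With every protein-coding gene that had any count tested in place of the filter, 31 of the 39 Hox genes entered the fit, many with a few counts in 1 library. Then 22 were called for age (86.5% of all genes), 8 from E14 to E18 (61%), 11 from E18 to P7, all of them higher (64.3%), 15 from P7 to P35, 3 of them higher (64.6%), and 0 from P35 to P70 (7.42%), where edgeR gave 2 at an unadjusted p under 0.05. These counts rested in part on P7 WT replicate 2. Without it, a setting chosen after seeing the data, they were 15 for age (86.5%), 9 from E14 to E18 (61.8%), 3 from E18 to P7 (64.5%), 6 from P7 to P35 (64.8%) and 0 from P35 to P70 (9%). At P7, edgeR called 0 of the 31 by genotype in this setting (0.514% of all genes), with 10 at an unadjusted p under 0.05, and without P7 WT replicate 2 it called 0 (0.035%), with 1. Hoxb3 shows the dependence, with a log2 change from WT to Het at P7 of -5.17 (SE 1.43, adjusted p = 0.109) with P7 WT replicate 2 and 0.08 (SE 1.43, adjusted p = 1) without it.

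Hoxd1, of the front end of cluster d, followed age in another way. It had 3 counts over 10 libraries at E14, 6 at E18, 3 over the 9 P7 libraries other than WT replicate 2, 51 at P35 and 33 at P70. All 20 adult libraries held a count, from 2 to 8 at P35 and from 1 to 6 at P70. With every counted gene tested, Hoxd1 rose from P7 to P35 by 2.05 on the log2 scale (SE 0.57, adjusted p = 0.00135, edgeR), and by 3.59 (SE 0.59, adjusted p = 4.32e-07) without P7 WT replicate 2. By genotype the adult counts of Hoxd1 overlapped, with 21 in P35 WT, 30 in P35 Het, 17 in P70 WT and 16 in P70 Het.

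Hoxa7 and Hoxb4 were also spread thinly over adult libraries. Hoxa7 had counts in 8 of 10 libraries at P35 (17 counts) and 8 of 10 at P70 (25 counts), against 2 of 10 at E14 (7), 2 of 10 at E18 (2) and 3 of 9 at P7 without WT replicate 2 (3). From P7 to P35 it rose by 2.03 on the log2 scale in the fit of every counted gene without P7 WT replicate 2 (SE 0.80, adjusted p = 0.0239, edgeR), and by 1.89 (SE 0.75, adjusted p = 0.0242) with it. Hoxb4 had 7 counts at E14, 3 at E18, 9 over the 9 other P7 libraries, 16 at P35 and 31 at P70. Its change from P7 to P35 was -0.96 (adjusted p = 0.249) with P7 WT replicate 2 and 0.67 (adjusted p = 0.420) without it, so its direction turned on that library. Hoxa7 shares 20.4% of its exonic bases with Hoxaas3, and Hoxb4 and Hoxd1 share none.

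Many members of the Hox clusters gave few counts or none. Members at 0 in all 50 libraries were Hoxa10, Hoxa11, Hoxa13, Hoxb1, Hoxc12, Hoxd10, Hoxd11 and Hoxd13, and a further 8 had fewer than 10 counts over all 50 libraries, namely Hoxa6, Hoxa9, Hoxb7, Hoxc8, Hoxc9, Hoxc10, Hoxc11 and Hoxd12. Hoxb13 had 11 counts, 8 of them in E18 Het, and Hoxc13 12 counts, 9 of them at P7. Hoxc6 had 11 counts in 7 libraries, Hoxb9 12 in 7 libraries, Hoxb6 23 in 6 libraries and Hoxc5 23 in 6 libraries. Hoxb8 had 30 counts, of which 10 were in P35 Het replicate 1 and 15 in E14 Het. In all, 24 of the 39 members reached 10 counts in no library.

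Genes that act with or upon Hox genes were tested one by one and counted by list. The 9 genes of the TALE class (Pbx, Meis and Pknox), whose proteins bind DNA together with Hox proteins, were all tested, and with age as a covariate 1 of them, Pbx2, was called, lower in Het by -0.14 on the log2 scale (SE 0.02, adjusted p = 2.11e-05, edgeR; 3.75% of genes were called in that direction). Upstream regulators of Hox genes, among them retinoic acid receptors, enzymes that make or break down retinoic acid, and Cdx factors, gave 0 of 9 tested of 13, the chromatin regulators of the Hox clusters (Kmt2a, Men1, Ezh2, Eed, Suz12 and Cbx2) 0 of 6, and the cluster neighbours Evx1 and Evx2 with the related genes Gsx1, Gsx2 and Pdx1 0 of 2 tested of 5. No gene of these 4 lists was called by edgeR at any single age or for the interaction. Of all genes tested, at most 0.735% were called at a single age (P7), 0% for the interaction and 4.43% with age as a covariate.

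Across ages these partners of the Hox genes were counted by the direction of their change, and the lists were not tested against all genes. Of the 9 TALE genes, 2 rose and 4 fell from E14 to E18, 2 rose and 6 fell from E18 to P7, 2 rose and 6 fell from P7 to P35, and 0 changed from P35 to P70. Of the 9 upstream regulators tested, 7 rose and 1 fell from E14 to E18, 3 rose and 3 fell from E18 to P7, 2 rose and 4 fell from P7 to P35, and 0 changed from P35 to P70. All 6 chromatin regulators fell from E14 to E18 and again from E18 to P7, 1 rose and 3 fell from P7 to P35, and 1 (Kmt2a) rose from P35 to P70. Of the cluster neighbours and related genes, Gsx1 and Gsx2 were tested, with 0 rising and 2 falling from E14 to E18, 1 and 1 from E18 to P7, 0 and 1 from P7 to P35, and 0 and 0 from P35 to P70. In all genes tested, 35.8% rose and 37.3% fell from E14 to E18, 37.8% and 38.2% from E18 to P7, 37.9% and 38.3% from P7 to P35, and 5.3% and 4.91% from P35 to P70.

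In P7 WT replicate 2 these lists moved unevenly. The TALE genes summed to 486 CPM, below the other 9 P7 libraries (623 to 785 CPM), with 2 of 9 genes above and 4 below all of them, Meis2 at 73.9 CPM against a median of 196.2 and Meis1, which was higher, at 47.7 CPM against 5.69. Upstream regulators summed to 121 CPM (others 132.9 to 154 CPM), with 1 of 13 genes above and 4 below all others, Cyp26b1 at 54.6 CPM and Rara at 13.8 CPM, and with Cdx1, Cdx2 and Cyp26c1 at 0. Chromatin regulators summed to 333 CPM (others 286 to 324 CPM), with 4 of 6 genes above and 1 below all others, Kmt2a at 132.7 CPM, Men1 at 69.2 CPM and Suz12 at 56.9 CPM. Evx2, next to the rear end of cluster d, had 95 counts and Evx1, next to that of cluster a, 42 counts, against 0 and 2 over the other 9, while Gsx1 had 55 counts against a highest of 57 elsewhere, Gsx2 was at 0.281 CPM, below the other 9 (0.419 to 1.01 CPM), and Pdx1 was at 0. Both Evx genes were thus present in P7 WT replicate 2 although the Hox genes nearest to them, Hoxa13 and Hoxd13, were at 0 there.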

How the data were processed

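Counts of fragments per gene were deposited by the authors for 50 libraries; per the labels and methods, reads were trimmed with Trimmomatic, checked with FastQC, aligned with STAR to GRCm38 and counted with featureCounts 1.4.6-p2 against Ensembl 102, unstranded, with a fragment given to every gene it overlapped (option -O). Total counts ranged from 35507165 to 43907318, so that 1 count equals about 0.0255 CPM in P7 WT replicate 2. Of 55487 gene IDs, 55141 matched GENCODE vM21, from which gene types, lengths and the Hox genes were taken; RPKM divides CPM by exonic length. No library was left out. Tests used edgeR 4.0.16 (TMM, filterByExpr, quasi-likelihood, Benjamini-Hochberg, adjusted p under 0.05) in R 4.3.3, tested on simulated data, with limma 3.58.1 and DESeq2 1.42.0 as alternatives. Intervals are exact, at 95%. Named were the 12 Hox genes with the highest RPKM in P7 WT replicate 2, the 5 with the highest mean RPKM in the others, other Hox genes by their counts, genes among the 3 most abundant of each marker list, and 20 genes of the whole table by ratio. The members and lists were chosen with earlier results of these data known. Tables and figures used Python 3.11.15, numpy 2.4.6, pandas 2.3.3, scipy 1.17.1 and matplotlib 3.10.9.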

Additional observations from a re-analysis of the deposited data

Results flagged for a closer look

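Within each group of 5 libraries, a library was singled out when the gap to its nearest neighbour exceeded 0.71 of the range of the group (Dixon's ratio). For normally distributed values this happens by chance in about 1 in 20 groups. In all, 69 groups were examined, 42 of them sums of marker lists at P7. Many of the values rest on few counts, so that rate need not hold here. For the summed Hox CPM this picked 3 libraries: P7 WT replicate 2 at 16.9 CPM (nearest 0.832), E14 WT replicate 5 at 0.438 CPM (nearest 0.172) and E18 Het replicate 3 at 0.383 CPM (nearest 0.183).

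Single Hox genes were examined only if named in the report and with 10 counts or more in a library of the group, which in P7 WT only replicate 2 had, so the values for that library partly restate how the genes were chosen. P7 WT replicate 2 lay far above the other 4 libraries of its group for 11 genes: Hoxb3 at 4.52 CPM, Hoxd3 at 3.06, Hoxc4 at 2.12, Hoxa3 at 1.25, Hoxb2 at 1.12, Hoxb5 at 0.842, Hoxa5 at 0.816, Hoxb4 at 0.765, Hoxa4 at 0.663, Hoxa2 at 0.612 and Hoxd4 at 0.434 CPM. Hoxb3 also stood apart in E14 Het replicate 3, at 0.537 CPM (nearest 0.154).

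Among summed marker lists, P7 WT replicate 2 lay far below its group for the telencephalon (428 CPM) and far above it for brainstem and spinal transcription factors (68.4 CPM), glycinergic neurons (31.7 CPM), noradrenergic neurons (20.1 CPM), cerebellum (228 CPM), midbrain (25.7 CPM), thalamus (93.1 CPM), choroid plexus (637 CPM), myelin (1544 CPM) and the Hox cluster neighbours with related genes (5.18 CPM). Its epidermal sum (24.1 CPM) was singled out by the same ratio but lay close to the highest of the other P7 libraries (23.003 CPM). In 2 other libraries, the glycinergic sum of P7 Het replicate 5 was far below its group (0.0757 CPM) and the erythroid sum of P7 WT replicate 5 far above it (271 CPM). These differences were not tested.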

How the results depend on the processing

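With every protein-coding gene that had any count tested, more Hox genes entered the fit (31 in place of 1), and 22 were called for age, 8 from E14 to E18, 11 from E18 to P7 and 15 from P7 to P35, against 1, 0, 0 and 1; with P7 WT replicate 2 also left out, an alternative added after seeing the data, these were 15, 9, 3 and 6. With 1 library left out in turn, the Hox genes called by genotype at E14 ranged from 0 to 1, and no other count of called Hox genes changed. The summed Hox CPM in P7 WT replicate 2 was 5.20 with members that share under 10% of exonic bases. Its fold over the median of the other P7 libraries, 42.9, was 39.1 with TMM library sizes, 32.9 with those members, and 39.1 to 43.2 with 1 library left out. Replicate numbers did not pair libraries: of 25 same-numbered pairs, 9 correlated above 0.1 (-0.204 to 0.460). With replicate number as a replicate block, Hox genes called by genotype with age as a covariate were 0, and all 12 counts of called Hox genes were the same. DESeq2 gave no adjusted p for Hoxd8 in 4 results, and at 10 CPM no Hox gene was tested. Depth limits most results here: a gene at 0 counts may have up to 3, and 24 of the 39 genes never reached 10. Beyond the larger number of genes tested and the libraries left out, the cause of these shifts was not tested.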
